A study of Populus tremula x Populus alba with 4 samples.

Results

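The class III HD-ZIP genes are a small family of plant transcription factors, and 8 poplar genes of the family, HB1 to HB8, are described here in bark. They were chosen by gene ID: HB1 (Potri.009G014500.1) and HB2 (Potri.004G211300.1) of the REVOLUTA group, HB3 (Potri.011G098300.1) and HB4 (Potri.001G372300.1) of the PHABULOSA group, HB5 (Potri.001G188800.1) and HB6 (Potri.003G050100.1) of the CORONA group, and HB7 (Potri.018G045100.1) and HB8 (Potri.006G237500.1) of the ATHB8 group. The names and groups follow the order in which the IDs were listed; the files carry IDs without names, and the assignment was not checked against an annotation. All 8 were found, 1 row each, among the 41335 transcript IDs of the files, and all 8 passed the filter on low counts, as did 30975 genes in all. The rule uses no measured value, although earlier results of these data were known when it was written.

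Class III HD-ZIP proteins bind DNA through a homeodomain followed by a leucine zipper, and carry a START domain, a fold related to lipid-binding proteins. Their transcripts hold a site for the microRNA miR166, and in Arabidopsis also miR165, which limits where they accumulate. In Arabidopsis they set the upper side of leaves and the xylem side of vascular bundles, opposed by the KANADI factors. In poplar, members of the family act in the vascular cambium, the dividing layer between wood and bark, and in the tissues it produces.

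Messenger RNA of bark was sequenced from 2 groups of a hybrid poplar, Populus tremula x Populus alba, all of clone INRA 717-1B4: MIR15 transgenic plants and wild-type (WT) plants, with 2 libraries each. All plants were first grown aseptically, with kanamycin in the medium where needed, then in soil at a constant temperature under long days. The labels call the libraries of a group biological replicates; they do not name the gene that the MIR15 construct acts on, its promoter, or whether the MIR15 libraries come from 1 transgenic line, and they give no age. Bark is the tissue outside the cambium, which includes the phloem, its fibres and the periderm. Library totals were 68453851 and 69747662 reads in MIR15 and 82789893 and 77052567 reads in WT, and the family took 0.0611% and 0.0533% of all reads in the MIR15 libraries, against 0.0611% and 0.0608% in the WT libraries.

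In the same libraries, 9 poplar IDs listed from general knowledge, not checked against an annotation, were also read. The 4 IDs listed for cambium regulators averaged between 50.2 and 307 CPM (reads per 1000000 reads of the library, with library totals adjusted by TMM normalization), and the 5 listed for cellulose synthases of the secondary wall between 32.8 and 160 CPM. Reads of both lists were present in every bark library. Markers of phloem and periderm were not examined here, so the bark label was not checked. In bulk bark, fewer cells of a type and less RNA per cell cannot be told apart.

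All 8 genes were read at moderate depth in every library, with 2482 to 9138 total gene reads per gene and library, or 35.4 to 118 CPM. Transcript lengths were not used here, so the CPM of different genes are not ranked against each other; each gene is compared with itself across libraries.

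**Figure D1:**
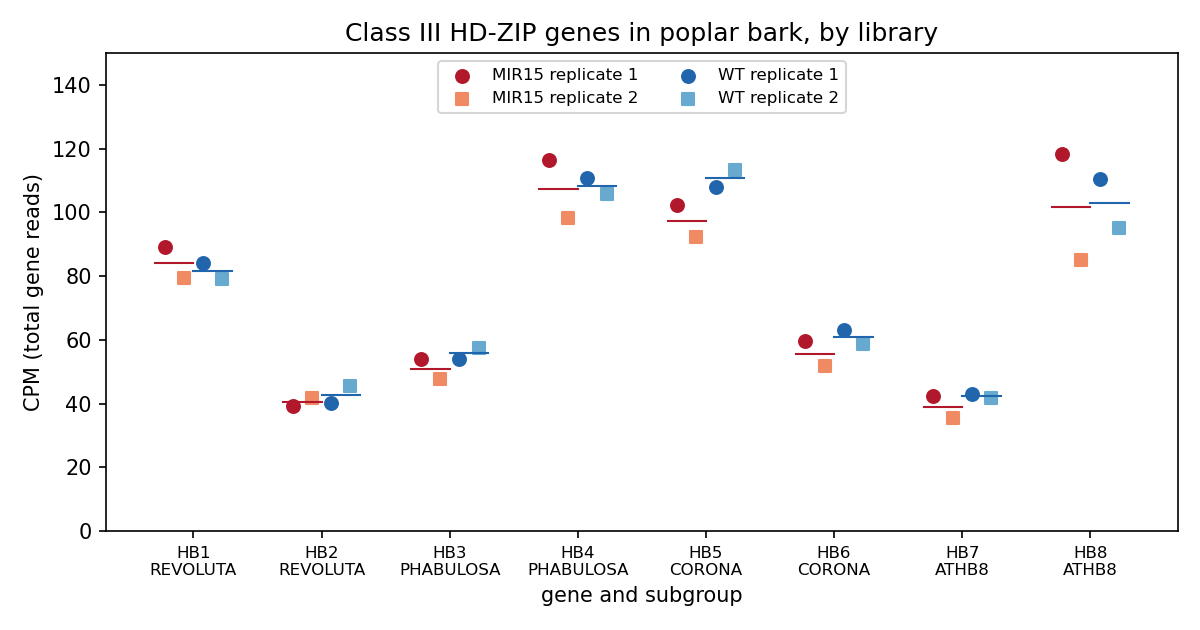
Level of each class III HD-ZIP gene in CPM (total gene reads, y axis from 0) in the 4 bark libraries, MIR15 left and WT right within each gene; horizontal lines are group means. The groups overlap in 6 of the 8 genes, all but HB3 and HB5, where MIR15 lies below WT. Over all tested genes, 12.7% lie below and 12.3% above. MIR15 replicate 2 is the lowest library in 6 of the 8 genes (HB3 to HB8), as in 23% of all tested genes.

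No class III HD-ZIP gene passed the test for a difference between MIR15 and WT bark. In the edgeR quasi-likelihood test over all genes, 0 of the 8 were called at an adjusted p under 0.05, where 0.00323% of all tested genes were called, and 0 of the 8 had an unadjusted p under 0.05, where 2.47% of all tested genes did. DESeq2 also called 0 of the 8, where it called 0.0417% of the genes it tested. The log2 fold changes of MIR15 over WT lay between -0.19 and 0.05, with 7 of 8 below 0, as were 15556 of the 30975 tested genes. The median of the 8 was -0.10, beside a median under 0.01 in size over all tested genes. Of the 8, 8 were below 0 without MIR15 replicate 1 and 4 without MIR15 replicate 2. Without WT replicates 1 and 2 in turn, 5 and 6 were. The median size of the 8 fold changes, 0.10, was below that over all tested genes, 0.13, which include genes at lower levels. Between the MIR15 replicates, too, the median size of the log2 difference was larger over all tested genes (0.25) than over the 4436 genes at the family's level (0.17). No median fold change was taken at that level. With 2 libraries a group, the 95% intervals reached down to a fold of 0.692 (HB5) and up to a fold of 1.36 (HB8). Changes within the interval of a gene could not be set aside. The interval limits do not mark the smallest change that could be called. A call needed an adjusted p under 0.05 over 30975 genes, a stricter bar than a single 95% interval. That smallest change was not worked out. These p-values and intervals combine the spread between the 2 libraries of each genotype with a spread that edgeR shares over all genes (prior degrees of freedom 5.28).

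The REVOLUTA group is known from Arabidopsis for its part in interfascicular fibres and organ polarity, and a poplar REVOLUTA gene that escapes its microRNA gives extra cambium layers in the stem cortex, a tissue that belongs to bark. HB1 had 89.2 and 79.4 CPM in MIR15 replicates 1 and 2, against 84.1 and 79.2 CPM in WT replicates 1 and 2. Both genotypes were higher in replicate 1, and the groups overlapped. HB1 was the sole member with a fold change above 0, a log2 value of 0.05 ± 0.15 (SE, n = 2 each; edgeR adjusted p = 1.00). HB2 had 39.3 and 41.7 CPM in MIR15, against 40.3 and 45.5 CPM in WT, a log2 fold change of -0.08 ± 0.14 (SE). It ran opposite to its partner, since replicate 2 was the higher library in both genotypes, and its groups overlapped.

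The PHABULOSA group takes its name from an Arabidopsis gene of leaf polarity, and HB4 is described in poplar in the formation of the cambium between vascular bundles. HB3 had 54.0 and 47.6 CPM in MIR15, against 54.0 and 57.5 CPM in WT. Its MIR15 libraries lay below its WT libraries, but the gap between MIR15 replicate 1 and WT replicate 1 was 0.110% of the WT value. The log2 fold change, -0.13 ± 0.14 (SE), had an edgeR adjusted p of 1.00. HB4 had 116 and 98.2 CPM in MIR15, against 111 and 106 CPM in WT, so that MIR15 held both its highest and its lowest library. The means were 107 ± 12.9 CPM in MIR15 and 108 ± 3.59 CPM in WT (SD, n = 2 each), and on the log2 scale the fold change was -0.01 ± 0.16 (SE).

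The CORONA group, whose Arabidopsis namesake acts in vascular development and in part against REVOLUTA, has been linked in poplar to secondary growth. HB5 had the largest fold change of the family in size. Its level was 102 and 92.2 CPM in MIR15, against 108 and 113 CPM in WT. The groups did not overlap, with a gap of 5.20% of the lower WT value, and the means were 97.3 ± 7.27 CPM in MIR15 and 111 ± 3.73 CPM in WT (SD, n = 2 each). The log2 fold change was -0.19 ± 0.15 (SE), with a 95% interval from -0.53 to 0.16, an unadjusted p of 0.245 and an adjusted p of 1.00 in edgeR. HB6 had 59.5 and 51.8 CPM in MIR15, against 63.2 and 58.8 CPM in WT. The groups of HB6 overlapped after TMM scaling, since MIR15 replicate 1 lay above WT replicate 2. Scaled to the plain library total they did not, at 58.5 CPM in MIR15 replicate 1 against 59.8 CPM in WT replicate 2. The log2 fold change of HB6 was -0.13 ± 0.15 (SE).

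Of the 8 genes, 2 (HB3 and HB5) had both MIR15 libraries below both WT libraries, and 0 had them above. Over all tested genes, 12.7% lay below and 12.3% above. That count rests on TMM scaling and on the 0.110% gap of HB3. Scaled to the plain library total, HB6 and HB7 also had both MIR15 libraries below both WT libraries. In the normalised signal deposited by the authors, HB3 overlapped, at 4009 in MIR15 replicate 1 against 3998 in WT replicate 1. The shares over all tested genes were taken with TMM alone.

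Genes of the ATHB8 group mark the earliest vascular cells in Arabidopsis, and HB7 is described in poplar in the differentiation of cambial cells toward xylem and phloem. HB7 had 42.5 and 35.4 CPM in MIR15, against 43.1 and 41.8 CPM in WT. After TMM scaling, 1 MIR15 library lay between the WT libraries and the other below them, and the log2 fold change was -0.12 ± 0.15 (SE). Scaled to the plain library total, both MIR15 libraries lay below them, with 41.8 CPM in MIR15 replicate 1 against 42.5 CPM in WT replicate 2. HB8 varied most of the family: it had 118 and 85.1 CPM in MIR15, against 110 and 95.2 CPM in WT, and its highest library was 1.39 times its lowest. The MIR15 values enclosed those of WT. The means were 102 ± 23.4 CPM in MIR15 and 103 ± 10.8 CPM in WT (SD, n = 2 each), and the log2 fold change was -0.02 ± 0.20 (SE). The sign of this value depended on the library kept: it was 0.21 without MIR15 replicate 2 and 0.10 without WT replicate 1, with no call in either.

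**Figure D2:**
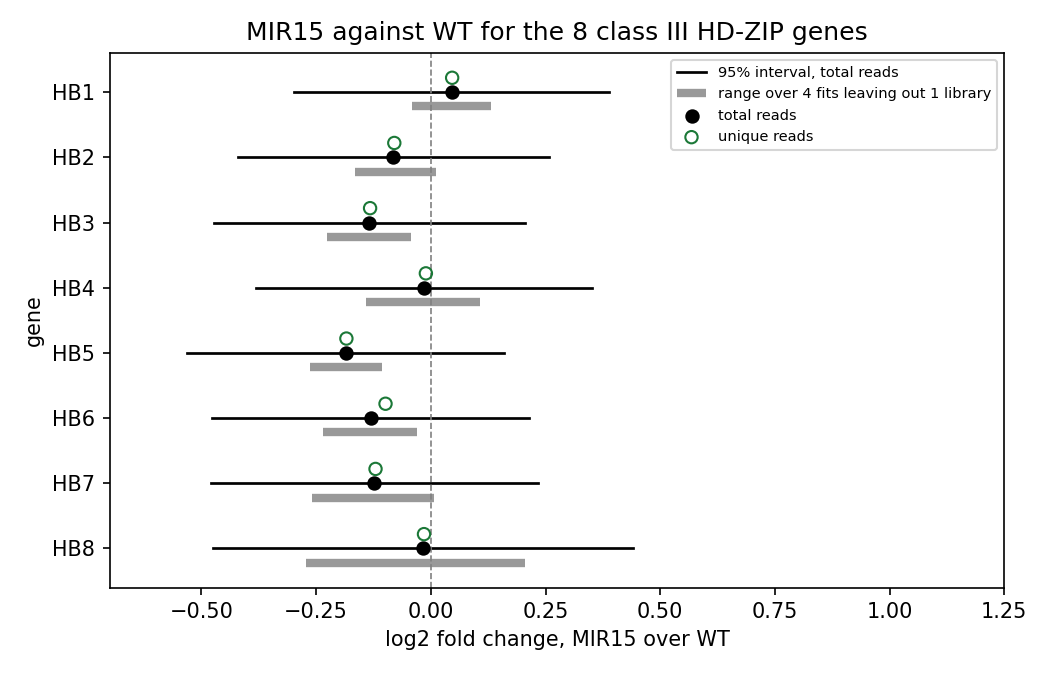
Log2 fold change of MIR15 over WT for HB1 to HB8 (x axis), with total reads as filled points and their 95% intervals, unique reads as open points, and the range over the 4 fits that leave out 1 library as grey bars. Every interval crosses 0, and the grey bars of HB3, HB5 and HB6 stay below 0.

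The fold changes of HB3, HB5 and HB6 kept their sign whichever library was left out, with ranges from -0.23 to -0.04 for HB3, from -0.26 to -0.11 for HB5 and from -0.24 to -0.03 for HB6. Those of HB1, HB2, HB4, HB7 and HB8 changed sign in at least 1 such fit. In these 4 fits, in which a lone library is assumed to vary like the other group, the smallest unadjusted p of any member was 0.183 (HB7, without MIR15 replicate 1).

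Summed over the 8 genes, the family had 621 and 531 CPM in MIR15, against 614 and 597 CPM in WT. After TMM scaling, MIR15 thus held both the highest and the lowest library. The means were 576 ± 63.7 CPM in MIR15 and 606 ± 12.0 CPM in WT (SD, n = 2 each), a log2 difference of -0.08, with p = 1.00 in an exact two-sided permutation test over the libraries, in which 2 against 2 can reach no less than 0.333. Without MIR15 replicate 2 the difference was 0.04, and without MIR15 replicate 1 it was -0.19. Scaled to the plain library total, WT replicate 1 was the highest library, at 0.06111% of all reads against 0.06108% in MIR15 replicate 1. The log2 difference with that scaling was -0.09 (exact permutation p = 0.667).

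By group of paralogs, the CORONA pair was the one whose sums did not overlap, at 162 and 144 CPM in MIR15, against 171 and 172 CPM in WT (exact permutation p = 0.333 and 1.00 adjusted over the 4 pairs, n = 2 each). The REVOLUTA pair summed to 128 and 121 CPM in MIR15, against 124 and 125 CPM in WT. Here the WT sums differed by 0.216%, although the level in WT replicate 2 was 0.941 times that in WT replicate 1 for HB1 and 1.13 times for HB2. The PHABULOSA pair summed to 170 and 146 CPM in MIR15, against 165 and 163 CPM in WT, and the ATHB8 pair to 161 and 121 CPM in MIR15, against 154 and 137 CPM in WT. The last pair had the widest spread within both genotypes.

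Within each pair, 1 paralog took at least 63.1% of the total reads in every library, and which one it was did not change. These are shares of reads, not per length. In the REVOLUTA pair HB1 took 69.4% and 65.6% of the reads in MIR15, against 67.6% and 63.5% in WT. In the PHABULOSA pair HB3 was the lesser paralog, with 31.7% and 32.7% in MIR15, against 32.8% and 35.2% in WT. HB5 led the CORONA pair with 63.2% and 64.0% in MIR15, against 63.1% and 65.9% in WT. HB7 was the lesser paralog of the ATHB8 pair, with 26.5% and 29.4% in MIR15, against 28.1% and 30.5% in WT. Exact 95% binomial intervals of these shares, which cover counting error only, spanned about 1 point on either side.

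**Figure D3:**
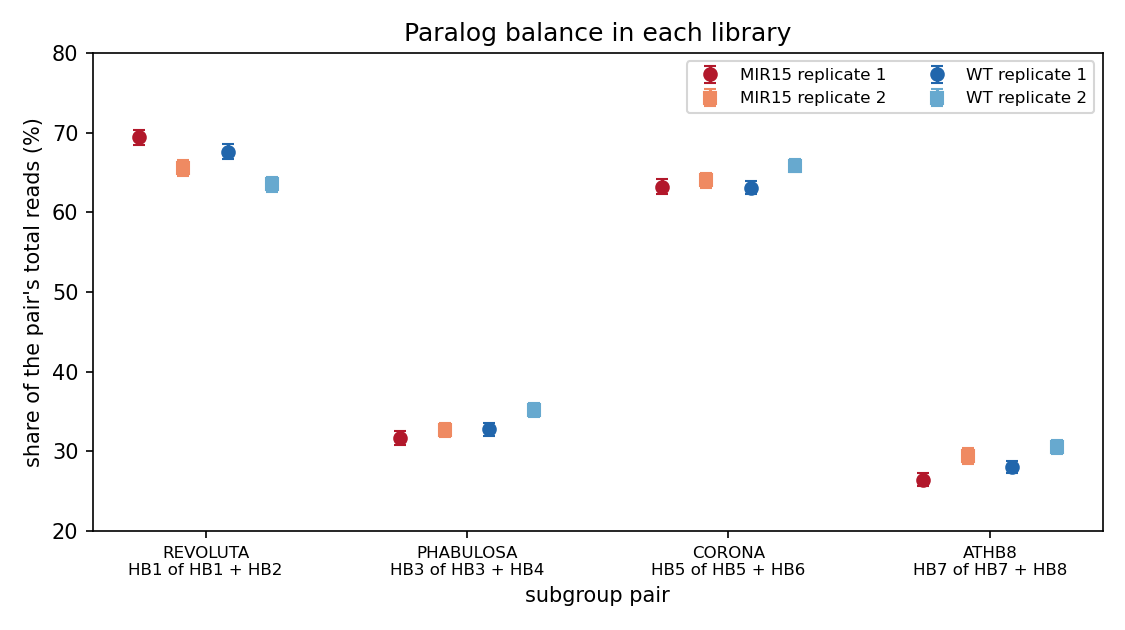
Share of each pair's total reads (y axis, percent, not from 0) taken by the first-named paralog in the 4 bark libraries, MIR15 left and WT right; bars are exact 95% binomial intervals. HB1 and HB5 hold 63.1% to 69.4% of their pairs, and HB3 and HB7 hold 26.5% to 35.2%.

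For the balance between paralogs, a comparison of 2 libraries against 2 cannot reach a p under 0.333, so that test could not pass 0.05 whatever the difference. The difference of MIR15 minus WT was 1.90 points for HB1, -1.81 points for HB3, -0.849 points for HB5 and -1.36 points for HB7. Exact two-sided permutation p-values were 0.667, 0.333, 1.00 and 0.667 in that order (n = 2 each), and 0.889 or above once adjusted over the 4 pairs. Only the shares of HB3 did not overlap between the groups, with 32.7% as the highest MIR15 value and 32.8% as the lowest WT value.

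Libraries of 1 genotype differed more in paralog balance than the genotype means did, in both genotypes for the REVOLUTA and ATHB8 pairs and in WT alone for the other 2 pairs. Taken as replicate 2 minus replicate 1, the share of HB1 differed by -3.87 points in MIR15 and -4.10 points in WT, and that of HB7 by 2.96 points in MIR15 and 2.43 points in WT. HB3 differed by 0.984 points in MIR15 and 2.45 points in WT, and HB5 by 0.793 points in MIR15 and 2.74 points in WT. In all 4 pairs the sign was the same in both genotypes, and in 6 of the 8 cases the binomial intervals of the replicates did not overlap. The labels do not say that the number marks a shared origin.

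After TMM scaling, MIR15 replicate 2 stood lowest of the 4 libraries for 6 of the 8 genes (all but HB1 and HB2), as it did for 23% of all tested genes. Scaled to the plain library total, MIR15 replicate 2 was also lowest for HB1, at 79.7 CPM against 80.6 CPM in WT replicate 2. Against MIR15 replicate 1, MIR15 replicate 2 was lower for 7 of 8 genes, at 0.900 times for HB5 down to 0.720 times for HB8, and higher for HB2, at 1.06 times. Each of these 8 differences exceeded counting error by its exact 95% interval. Among the WT libraries, replicate 2 was lower for 5 genes and higher for HB2, HB3 and HB5. After TMM scaling, 7 of the 8 differences exceeded counting error (HB7 did not). Scaled to the plain library total, the difference of HB4 was smaller, at 110 and 108 CPM in WT, against 111 and 106 CPM after TMM scaling. Counting intervals were not taken at the plain library total. The median size of the replicate difference over the 8 genes was 0.19 on the log2 scale in MIR15 and 0.09 in WT. For the 4436 genes with mean levels within the range of the family, it was 0.17 in MIR15 and 0.15 in WT.

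**Figure D4:**
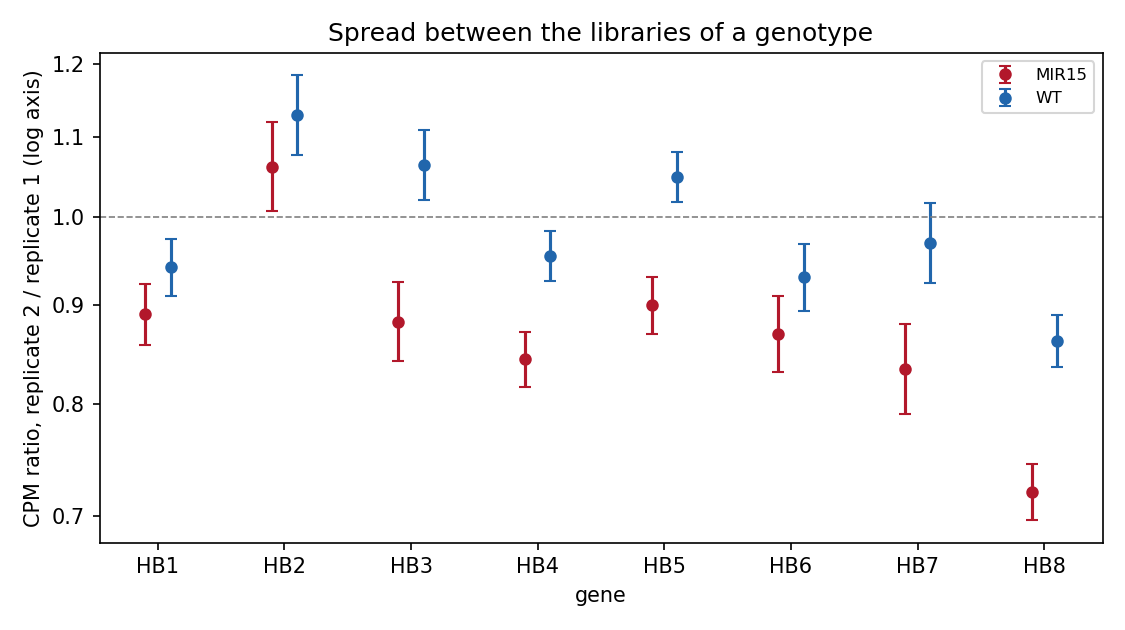
Ratio of the CPM of replicate 2 to that of replicate 1 (log axis) for each class III HD-ZIP gene, MIR15 left and WT right; bars are exact 95% counting intervals. In MIR15 the ratio is below 1 for all but HB2, and HB8 has the lowest ratio in both genotypes, 0.720 in MIR15 and 0.862 in WT.

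Among the IDs listed for cambium regulators, 3 of the 4 were also lowest in MIR15 replicate 2, as were 23% of all tested genes. The other, Potri.002G124100.1, was highest there, at 49.5 and 52.4 CPM in MIR15, against 47.6 and 51.4 CPM in WT. Summed over the 4 IDs, they had 738 and 541 CPM in MIR15, against 651 and 693 CPM in WT. None of the 4 was called by edgeR, and their median log2 fold change was -0.05. The 5 IDs listed for cellulose synthases summed to 499 and 511 CPM in MIR15, against 577 and 407 CPM in WT. All 5 were highest in WT replicate 1, and the share of all tested genes highest there was not taken. Of the 5, 4 were lowest in WT replicate 2. The exception, Potri.011G069600.1, was lowest in MIR15 replicate 2, at 37.7 and 27.0 CPM in MIR15, against 38.5 and 27.9 CPM in WT. None of the 5 was called by edgeR, and their median log2 fold change was 0.04. The part of either list in the values of the family was not tested.

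**Figure D5:**
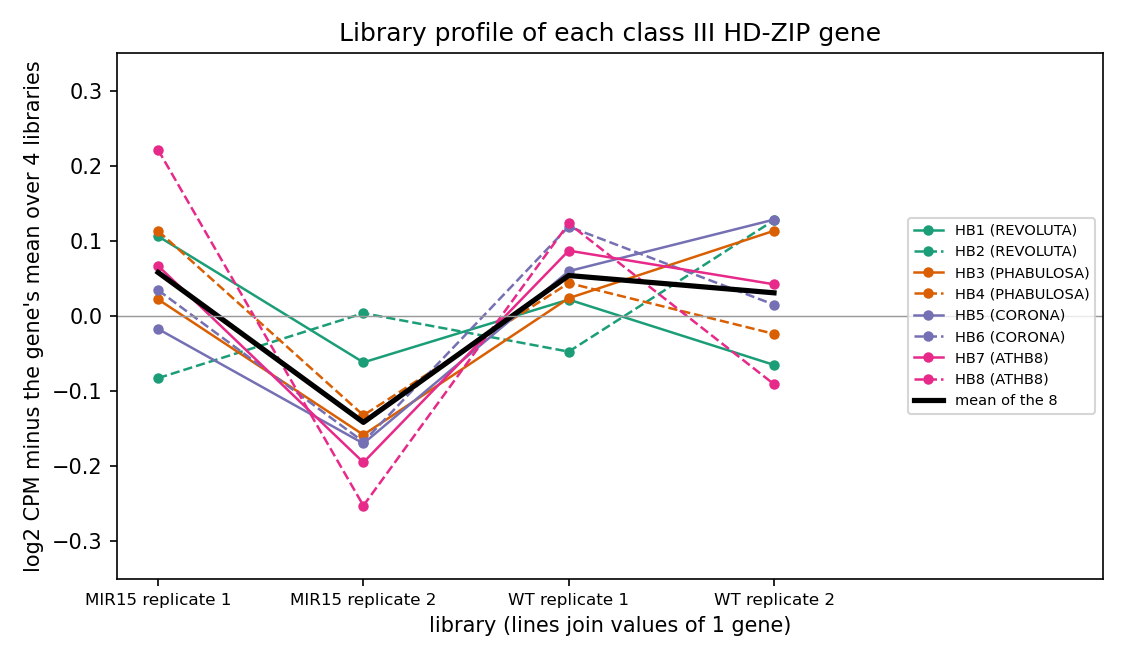
Log2 CPM of each class III HD-ZIP gene minus its own mean over the 4 bark libraries (y axis), with MIR15 left and WT right; colours are the groups of paralogs and the thick line is the mean of the 8 genes. The mean lies at 0.06 and -0.14 in MIR15 replicates 1 and 2, and at 0.05 and 0.03 in WT replicates 1 and 2, and HB2 is the gene that runs against it.

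The mean profile of the family was compared with every other tested gene at a mean of at least 5 CPM, 20091 genes in all, by the root-mean-square distance of centred log2 CPM over the 4 libraries. HB7 lay closest to the mean profile among the members, at a distance of 0.03, and HB2 and HB8 farthest, at 0.12 each. The nearest genes outside the family were Potri.016G061900.1, Potri.015G111600.1 and Potri.013G022600.1, at distances from 0.0053 to 0.0086. Potri.016G061900.1 had 31.8 and 27.9 CPM in MIR15, against 31.7 and 31.2 CPM in WT. With 4 libraries likeness at the looser distance is common: of the 20091 genes, 6360 lay within the distance of the farthest member. Within the median distance of the members lay 710.

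Reads that match more than 1 place touched only HB4 and HB6 to any extent. They made up 10.6% and 8.26% of the reads of HB4 in MIR15, against 8.69% and 10.7% in WT. For HB6 they made up 8.39% and 9.68% in MIR15, against 8.94% and 13.1% in WT. The partners HB3 and HB5 held at most 6 and 27 such reads in a library, where HB4 held 568 to 890 and HB6 336 to 604. In each of the other 6 genes they were at most 0.305% of reads. In unique reads alone the log2 fold change of HB6 was -0.10 ± 0.15 (SE), beside -0.13 in total reads. Those of the other 7 genes moved by under 0.01. In unique reads HB3 took 34.1% and 34.6% of its pair in MIR15, against 34.8% and 37.8% in WT. HB5 took 65.2% and 66.3% in MIR15, against 65.2% and 68.9% in WT. Each was above its share in total reads. The share difference of MIR15 minus WT in unique reads was -1.93 points for HB3 and -1.30 points for HB5. For HB1 and HB7 it was 1.89 and -1.35 points.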

How the data were processed

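Bark mRNA was read in 4 libraries, 2 of MIR15 and 2 of WT; groups and replicate numbers come from the sample titles, whose MIR15 numbers differ from those in the file headers. The authors deposited whole-number counts of unique and of total gene reads, made with CLC per the file headers, and a DESeq normalised signal that equals the total reads divided by 1 constant per library (0.906 and 0.946 in MIR15, 1.11 and 1.06 in WT). Aligner settings, genome build, annotation and the placing of reads with several matches are stated in no source used here. Total reads were tested over the whole table with edgeR 4.0.16 in R 4.3.3 (filterByExpr, TMM, quasi-likelihood F test, two-sided, genotype alone, Benjamini-Hochberg over 30975 genes, threshold 0.05). SEs and 95% intervals come from the F statistic. TMM moved no CPM of a member by more than 1.76% from plain scaling to the library total. That shift still decided whether the groups of HB6 and HB7 overlapped and which library held the highest family sum. Sums and shares were tested by exact permutation over libraries, and single shares and ratios have exact (Clopper-Pearson) intervals. DESeq2 1.42.0, unique reads, other scalings and filters, a replicate block and leaving out each library were alternatives. The members and lists were chosen with earlier results of these data known. Lists of related genes (KANADI, LITTLE ZIPPER, other HD-ZIP classes and the like) and most cell type markers were name patterns and were not filled, because no annotation was used here. Named besides the members are the 3 genes with the nearest profile and at least 5 CPM.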

Additional observations from a re-analysis of the deposited data

How the results depend on the processing

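The 56 fold changes of the 8 genes from the 7 settings that kept all libraries (RLE factors, library total alone, no filter, a mean of at least 5 CPM, DESeq2, unique reads, the replicate block) kept their direction and none passed the threshold, with the smallest adjusted p at 1.00. Of the 32 from leaving out 1 library, 25 kept their direction and 7 turned, none with a call (smallest adjusted p 0.977 in edgeR); the ranges over these fits were -0.0403 to 0.13 for HB1, -0.17 to 0.0106 for HB2, -0.14 to 0.11 for HB4, -0.26 to 0.0065 for HB7 and -0.27 to 0.21 for HB8. The summed level ranged from -0.19 to 0.0376 on the log2 scale. The share difference ranged from -0.146 to 3.95 points for HB1, from -3.03 to -0.582 points for HB3, from -2.22 to 0.522 points for HB5 and from -2.84 to 0.117 points for HB7. Over all genes edgeR called 1, against 14 with DESeq2, 120 with the replicate block, 0 in unique reads, 0 at a mean of at least 5 CPM, and 0 to 8 with 1 library left out. At the counts of 0, edgeR gave 768 and 389 genes with an unadjusted p under 0.05 in unique reads and at 5 CPM, and 882 and 1351 without MIR15 replicate 1 and 2; the count of 8 came without WT replicate 1. The deviations of libraries with the same title number had a correlation of 0.25 over 25931 genes. Its sign depends on how the 2 libraries of a genotype are numbered, so it cannot decide whether libraries are paired. The labels give the number no meaning beyond a replicate, so the libraries were not taken as paired. The correlation and the block hold for the title numbers alone, since the file headers number the MIR15 libraries otherwise. With equal groups a block cannot move the mean differences of sums and shares (-0.08 for the sum; 1.90, -1.81, -0.849 and -1.36 points for HB1, HB3, HB5 and HB7). Within title numbers 1 and 2, MIR15 minus WT was 0.02 and -0.17 for the log2 sum, and in points of share 1.79 and 2.02 for HB1, -1.07 and -2.54 for HB3, 0.125 and -1.82 for HB5 and -1.63 and -1.10 for HB7; 2 differences allow no test past the threshold. The causes of these turns were not tested. Depth was not varied.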
